A study of Mus musculus with 8 samples.

Results

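Integrins are the receptors by which microglia, the resident macrophages of the brain, hold on to matrix and to other cells. The genes described here are 10 integrin chains of microglia, taken as the rows of a count table that carry the GENCODE symbols Itgam, Itgb2, Itgal, Itga4, Itga5, Itga6, Itgav, Itgb1, Itgb3 and Itgb5. They were 10 of 55385 genes in the table, and all 10 were among the 17537 whose counts sufficed for a test. The rows were found by name, with no threshold on a measured value.

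Positions are those of GENCODE M21 on mm10. Itgam (chr7:128062640-128118491) and Itgal (chr7:127296260-127335138) lie on chromosome 7, on the plus strand, in the cluster of leukocyte alpha chains. Itga6 (chr2:71745616-71858416), Itga4 (chr2:79255426-79333123) and Itgav (chr2:83724397-83806916) lie on chromosome 2, also on the plus strand. The beta chain genes are apart from each other, with Itgb2 at chr10:77530252-77565708, Itgb1 at chr8:128685654-128733200, Itgb3 at chr11:104608000-104670476 and Itgb5 at chr16:33829665-33949338, all on the plus strand. Itga5, at chr15:103344286-103366763, is the only one of the 10 on the minus strand.

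An integrin is a pair of one alpha and one beta chain that spans the membrane. It binds matrix or a surface protein outside the cell and is coupled to actin inside the cell by talin and kindlin, which also switch it to the binding state. Chains that lead to complement and adhesion proteins of leukocytes share the β2 chain, whereas those that bind fibronectin, laminin and other matrix mostly use β1, β3 or β5. In microglia the αM chain is the protein known as CD11b and is used to identify and sort these cells.

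Wild-type mouse microglia were cultured from the neocortex and hippocampus of newborn mice, with cells of several brains pooled in each culture. One group of 4 libraries came from cells given 10 µg/ml IgG for 24 h at DIV15, the day in vitro. The other 4 libraries came from control cells, which the sample labels call untreated and the methods of the study describe as given PBS. The label of each control library shares a date with that of 1 IgG library, without saying what was done on that date, which gave 4 pairs, and the question of the comparison was how IgG changed the RNA of these cells. Library totals ran from 21287816 to 23703216 counts. Nothing in the labels says whether libraries of different dates came from separate cultures, so p-values measure the spread between these libraries, which may be partly technical. In RNA from whole cultures fewer cells of a type cannot be told from less RNA per cell.

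The labelled cell type was checked against 10 microglia markers, and none was at 0 in any library. Csf1r, the receptor for colony-stimulating factor, ran from 1091 to 1286 CPM in control libraries and from 1171 to 1744 CPM in IgG libraries, where CPM is the count per 1e6 counts of the library after TMM scaling. Cx3cr1, the fractalkine receptor, was at 391 to 517 and 466 to 693 CPM. Trem2, a lipid receptor, was at 755 to 887 and 564 to 1113 CPM, and Ptprc, which encodes CD45, was at 445 to 503 and 376 to 616 CPM. Among markers of resting microglia in tissue, P2ry12, Tmem119 and Sall1 were low, whereas Cx3cr1 (above) and Fcrls (below) were not. P2ry12 was at 5.86 to 7.50 and 5.42 to 16.0 CPM, Tmem119 at 4.69 to 5.82 and 6.28 to 8.79 CPM, and the transcription factor gene Sall1 at 20.1 to 22.5 and 18.3 to 23.6 CPM. Aif1, which encodes Iba1, ran from 56.7 to 94.2 CPM in control and from 108 to 140 CPM in IgG libraries. Fcrls, an Fc receptor-like gene, ran from 167 to 264 and from 259 to 454 CPM. Aif1 and Fcrls rose with IgG, with log2 fold changes of 0.69 and 0.83 and adjusted p-values of 0.0331 and 0.0329 in edgeR's quasi-likelihood test, and both calls were lost without the block (0.615 and 0.634), with scaling by total counts alone (0.112 and 0.0595) or when pair 1, 2 or 3 was left out (0.117 to 0.263).

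Markers of other cell types were also counted. Summed over their lists, the 10 microglia markers gave 5280 to 5700 CPM in control and 5530 to 6840 CPM in IgG libraries, 9 oligodendrocyte lineage markers gave 1260 to 1920 CPM in control and 1090 to 1820 CPM (of which Mbp, myelin basic protein, gave 604 to 920 and 417 to 861 CPM), and 8 astrocyte markers gave 157 to 175 and 141 to 166 CPM. The 9 neuron markers summed to 45.2 to 72.4 and 40.7 to 60.2 CPM, the 6 fibroblast markers to 3.52 to 7.01 and 4.85 to 6.43 CPM, and the 6 endothelial markers to 6.76 to 11.2 and 5.87 to 14.9 CPM. The endothelial marker Cldn5 was at 0 in all 8 libraries, as were Cd3e, Cd3g, Cd8a and Nkg7 among the 6 markers of T cells, NK cells and platelets, which summed to at most 0.129 CPM. At this depth a count of 0 allows up to 0.127 to 0.141 CPM in a library. The 7 markers of border-associated macrophages summed to 449 to 691 CPM in control and 580 to 1170 CPM in IgG libraries. Most of this sum came from Siglec1 (231 to 382 and 270 to 725 CPM) and Ms4a7 (161 to 231 and 259 to 335 CPM), followed by Mrc1 (50.6 to 75.03 and 42.7 to 101 CPM) and Pf4 (5.10 to 6.32 and 4.44 to 7.83 CPM). Cd163 and Lyve1 had 0 to 5 counts in a library, and F13a1 was at 0.332 to 0.775 and 0.231 to 0.728 CPM, lower with IgG in all 4 pairs. Ms4a7 rose (log2 fold change 0.61, adjusted p = 0.0381 in edgeR), a call lost without the block (0.511), with scaling by total counts alone (0.0892) or when pair 1, 2 or 3 was left out (0.171 to 0.249). Siglec1 met only the second criterion below (log2 fold change 0.67, adjusted p = 0.111 in edgeR), as did the endothelial gene Cdh5 at 0.258 to 2.80 CPM (0.98, adjusted p = 0.221 in edgeR). Neither met it without the block (unadjusted p = 0.0261 and 0.0963 in edgeR) or without pairs 1 and 3, and Cdh5 did not when pair 1, 2 or 3 was left out (0.011 to 0.0225) or with DESeq2 (0.016). Siglec1 passed the adjusted threshold with DESeq2 (adjusted p = 0.000718), with edgeR's likelihood ratio test (0.00118), without a filter (0.000405) and without pair 4 (0.016), and Cdh5 with the likelihood ratio test (0.0154). The part of these cells in the integrin values was not tested.

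The promoters of Itgam and Itgb1 are shown because αM is used to identify microglia and β1 is the shared partner of α4, α5 and α6. The RefSeq table of build GRCm38.p6 held 6 of the 10 genes (Itgam, Itga4, Itga5, Itgav, Itgb1 and Itgb5). Both sequences are the 100 bases before the gene's start, read 5′ to 3′ on the plus strand. Capitals mark the motif GAGGAA or its reverse complement TTCCTC, the core bound by PU.1, the transcription factor that macrophages need to form. The windows are chr7:128062540-128062639 for Itgam and chr8:128685554-128685653 for Itgb1.
Itgam: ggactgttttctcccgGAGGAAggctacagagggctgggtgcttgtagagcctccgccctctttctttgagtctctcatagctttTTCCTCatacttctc
Itgb1: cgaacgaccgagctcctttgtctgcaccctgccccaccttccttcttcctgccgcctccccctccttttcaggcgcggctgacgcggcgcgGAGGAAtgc
The motif was found on either strand in 3 of the 6 windows (Itgam, Itgb1 and Itgav), and in 9.82% of the 32851 promoters of the table over the same 100 bases. In Itgam it lay on both strands, and the copy nearer to the start began at -15. These matches describe the letters of the windows, and no binding was measured.

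The 10 genes spanned a wide range of levels. On the scale of CPM per kb of exon, which allows genes to be compared, the β2 chain Itgb2 was the highest in control libraries at 262 ± 23.1 (SD, n = 4). It was followed by Itgb5 at 168 ± 6.01, Itgb1 at 135 ± 3.91 and Itgam at 134 ± 5.15. The lower genes were Itga5 at 36.2 ± 1.30, Itgal at 30.0 ± 2.24, Itga6 at 24.1 ± 3.93, Itgav at 16.4 ± 2.07, Itga4 at 6.59 ± 0.319 and Itgb3 at 2.40 ± 0.204. 3 pairs of neighbours in this order had overlapping ranges over the control libraries, which were Itgb1 and Itgam, Itgal and Itga6, and Itga6 and Itgav. Within each library Itgal was nevertheless above Itga6, and Itga6 above Itgav, in all 4 control libraries. In IgG libraries the order was the same except that Itgal, at 38.9 ± 3.53, stood before Itga5, at 37.2 ± 1.44, with overlapping ranges. Itgb5 and Itgb1 also overlapped there (173 ± 17.3 and 153 ± 31.3).

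**Figure D1:**
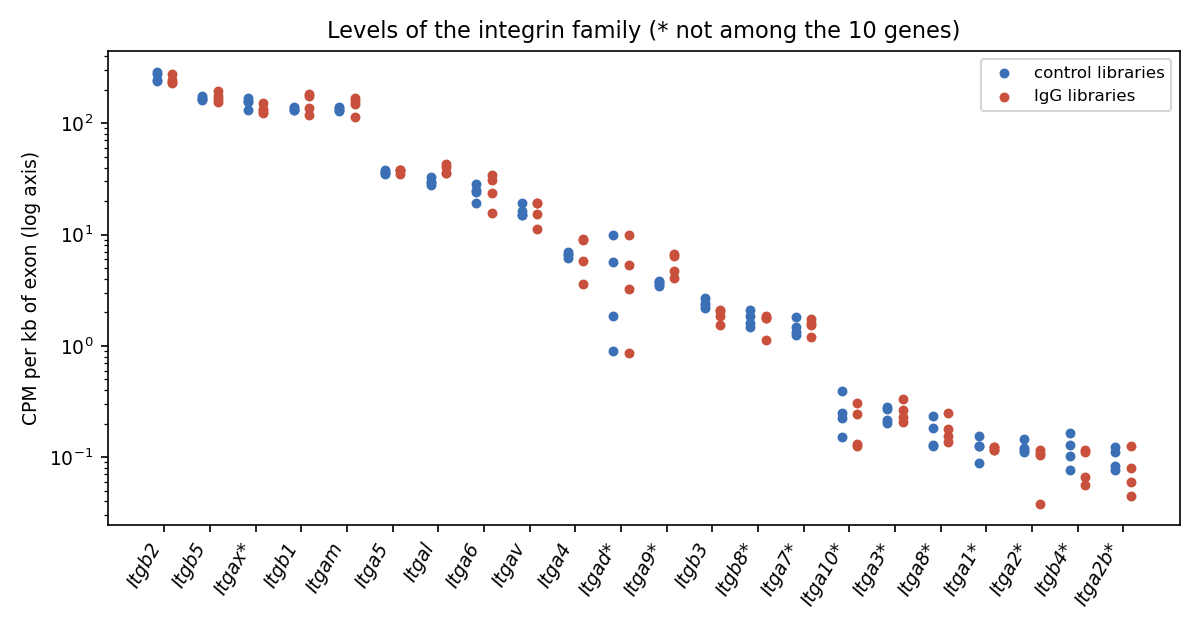
Levels of integrin genes as CPM per kb of exon on a log axis, for the 22 integrin genes tested, with a point for each of 4 control and 4 IgG libraries; an asterisk marks genes outside the 10. Itgb2, Itgb5, Itgb1 and Itgam lie above 100 in all 8 libraries, as does Itgax, and Itgb3 is the lowest of the 10.

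None of the 10 genes was called in the comparison of IgG with control. In edgeR's quasi-likelihood test with the replicate number as a block, 0 of 10 had an adjusted p-value under 0.05, against 0.393% of all genes tested (69 of 17537, all higher). By the study's own criterion, an unadjusted p-value under 0.01 with an absolute log2 fold change above 0.5, 0 of 10 were called against 1.82% of all genes (260 higher and 60 lower, or 172 and 140 with scaling by total counts alone). DESeq2 and limma-voom also called 0 of the 10 by either rule. At an unadjusted p-value under 0.05 the edgeR fit held 2 of 10, Itgal and Itgb3, against 10.2% of all genes. The median log2 fold change of the 10 was 0.04, and that of all genes was -0.01. Without the block, 0 of 10 were called by either rule, and 0 and 148 of all genes.

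**Figure D2:**
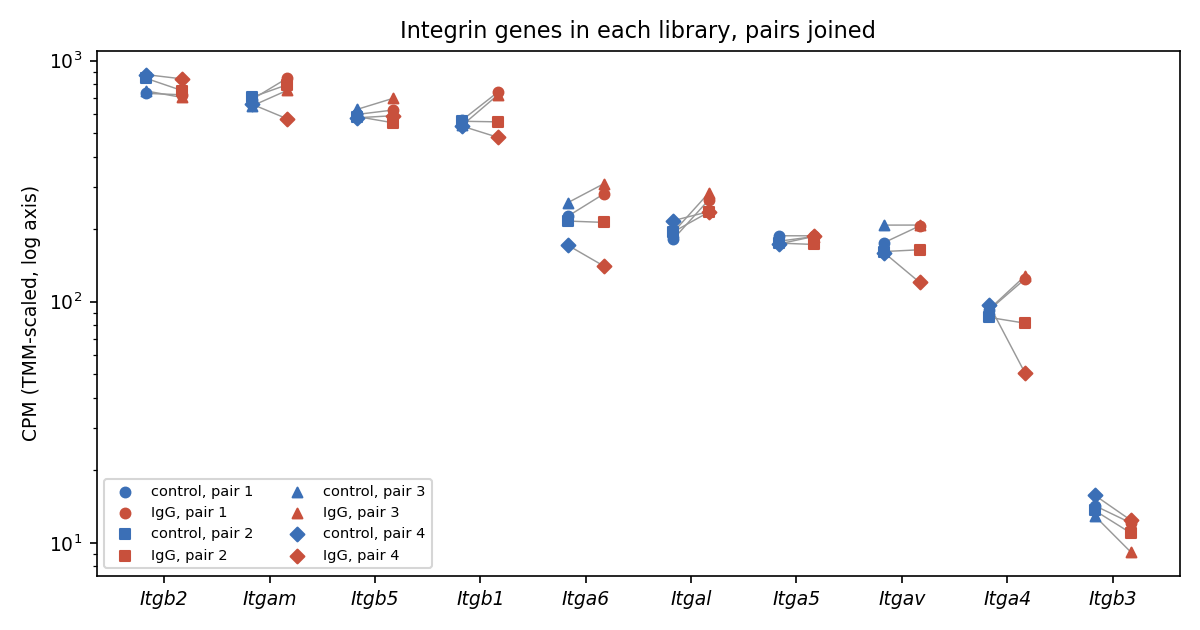
Level of each of the 10 integrin genes in CPM on a log axis, with control libraries in blue, IgG libraries in red, and a line joining the libraries of a pair. The IgG library of pair 4 is the lowest of the 8 for Itgam, Itga4, Itga6, Itgav and Itgb1, and no IgG library of Itgal or Itgb3 overlaps the control libraries.

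Among the leukocyte integrins, Itgb2 encodes the β2 chain, without which αM, αL and αX do not reach the surface. It stood at 732, 844, 749 and 875 CPM in control libraries 1 to 4 and at 722, 751, 704 and 840 CPM in the IgG libraries of the same pairs. Each IgG library was below its own control, although the groups overlapped. The fitted log2 fold change was -0.08 (SE 0.089, 95% interval -0.29 to 0.12) with an adjusted p of 0.735 in edgeR. With scaling by total counts alone it was -0.18 (unadjusted p = 0.0457, adjusted p = 0.414 in edgeR). Over all genes, 8.47% were lower with IgG in all 4 pairs.

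Itgam, the αM chain of the complement receptor that binds iC3b, had 689, 705, 648 and 661 CPM in control libraries and 847, 795, 754 and 573 CPM in IgG libraries. The first 3 IgG libraries were above every control library, and the fourth was below all of them. Its log2 fold change of 0.12 (SE 0.11, 95% interval -0.13 to 0.37) had an adjusted p of 0.691 in edgeR. A second gene model, Gm49368, shares exons with Itgam on the same strand. It had 78.7% to 82.8% as many counts as Itgam in each library, so that the reads behind the values may be partly the same. How the authors' counting treated reads of overlapping genes is not given in the sources used here.

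Itgal encodes αL, which binds the ICAM adhesion proteins. Its level was 182, 195, 194 and 217 CPM in control libraries and 265, 236, 283 and 237 CPM in IgG libraries. All 4 IgG libraries were above all 4 control libraries, as was the case for 2.60% of all genes, and 10.4% of all genes were higher in all 4 pairs. This gave a log2 fold change of 0.37 (SE 0.10, 95% interval 0.14 to 0.61), with an unadjusted p of 0.00662 and an adjusted p of 0.299 in edgeR. The changes within pairs were 0.55, 0.28, 0.55 and 0.13 on the log2 scale. Itgal did not pass the adjustment, and its change was below the fold limit of the second criterion. The unadjusted p was under 0.05 in 13 of 14 alternative fits, and the adjusted p was under 0.05 in 0 of 14 (0.0769 to 1.0). The exception was the fit without pairs 1 and 3, where the change was 0.20 (unadjusted p = 0.161 in edgeR).

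The αX chain, whose gene Itgax is outside the 10, is the remaining major partner of β2 in microglia. It was at 631, 744, 804 and 759 CPM in control and 593, 646, 728 and 618 CPM in IgG libraries, lower with IgG in each pair. Its log2 fold change was -0.18 (SE 0.09, 95% interval -0.39 to 0.02, adjusted p = 0.528 in edgeR). On the scale per kb, Itgax (153 ± 15.3, SD, n = 4, in control) was at a level like that of Itgam, with overlapping ranges.

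Among the chains that bind matrix, Itgb1 encodes the common β1 partner. Its values were 568, 560, 540 and 535 CPM in control libraries and 742, 557, 723 and 480 CPM in IgG libraries. IgG libraries 1 and 3 were above all control libraries, and IgG library 4 was below them. Fitted over the 4 pairs, the log2 fold change was 0.16 (SE 0.12, 95% interval -0.12 to 0.44, adjusted p = 0.646 in edgeR).

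Itga4, the α4 chain that binds VCAM1 and fibronectin, showed the widest spread of the 10 within the IgG group, with a coefficient of variation of 38.5% against 4.84% in control. It had 92.5, 86.1, 93.2 and 96.8 CPM in control and 124, 81.5, 128 and 50.5 CPM in IgG libraries. Pairs 1 and 3 were higher with IgG by 0.43 and 0.46 on the log2 scale, and pair 4 was lower, at -0.94. The fitted log2 fold change was -0.02 (SE 0.22, 95% interval -0.52 to 0.47, adjusted p = 0.971 in edgeR). Without pairs 1 and 3, an alternative chosen after the data were seen, it was -0.51 with an adjusted p of 0.0421, the only call among the 10 in any fit. Without pair 4 it was 0.25 with an adjusted p of 0.227. Itga4 shares exon sequence with Cerkl on the opposite strand, which had 314 to 516 counts per library against 1110 to 2691 for Itga4.

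Itga6 encodes the α6 chain, a receptor for laminin. Its level was 226, 216, 258 and 172 CPM in control and 280, 213, 308 and 141 CPM in IgG libraries. The order of the pairs was the same in both groups, with pair 3 highest and pair 4 lowest. The log2 fold change was 0.07 (SE 0.12, 95% interval -0.20 to 0.34, adjusted p = 0.851 in edgeR), and it turned to -0.03 under scaling by total counts alone.

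Itga5, the α5 chain of the main fibronectin receptor, was the steadiest of the 10 in IgG libraries, with a coefficient of variation of 3.87%. It had 188, 175, 178 and 174 CPM in control and 188, 173, 186 and 187 CPM in IgG libraries. The groups overlapped, and the log2 fold change was 0.04 (SE 0.083, 95% interval -0.15 to 0.23, adjusted p = 0.881 in edgeR). With scaling by total counts alone it was -0.06.

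The αV chain of Itgav pairs with β1, β3, β5 and β8 and binds the RGD motif of vitronectin and of latent TGF-β. Its level was 176, 162, 208 and 160 CPM in control and 206, 164, 208 and 120 CPM in IgG libraries. Only the fourth pair was lower with IgG, at -0.41 on the log2 scale. The log2 fold change was -0.04 (SE 0.12, 95% interval -0.30 to 0.23, adjusted p = 0.916 in edgeR).

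Itgb5 encodes the β5 chain, a partner of αV in the uptake of dying cells. It had 598, 586, 628 and 580 CPM in control libraries and 624, 553, 697 and 591 CPM in IgG libraries. The groups overlapped, and the log2 fold change was 0.04 (SE 0.09, 95% interval -0.17 to 0.25, adjusted p = 0.889 in edgeR), or -0.06 with scaling by total counts alone.

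Itgb3, the β3 chain that pairs with αV and, in platelets, with αIIb, was the lowest of the 10. It had 14.3, 13.6, 12.9 and 15.8 CPM in control libraries and 12.1, 11, 9.18 and 12.4 CPM in IgG libraries, from 187 to 366 counts. Every IgG library was below every control library, as was the case for 1.57% of all genes. It differed by -0.34 on the log2 scale (SE 0.11, 95% interval -0.60 to -0.09), with an unadjusted p of 0.014 and an adjusted p of 0.377 in edgeR. It was between -0.44 and -0.29 in the 14 alternative fits, in none of which it passed the adjustment.

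**Figure D3:**
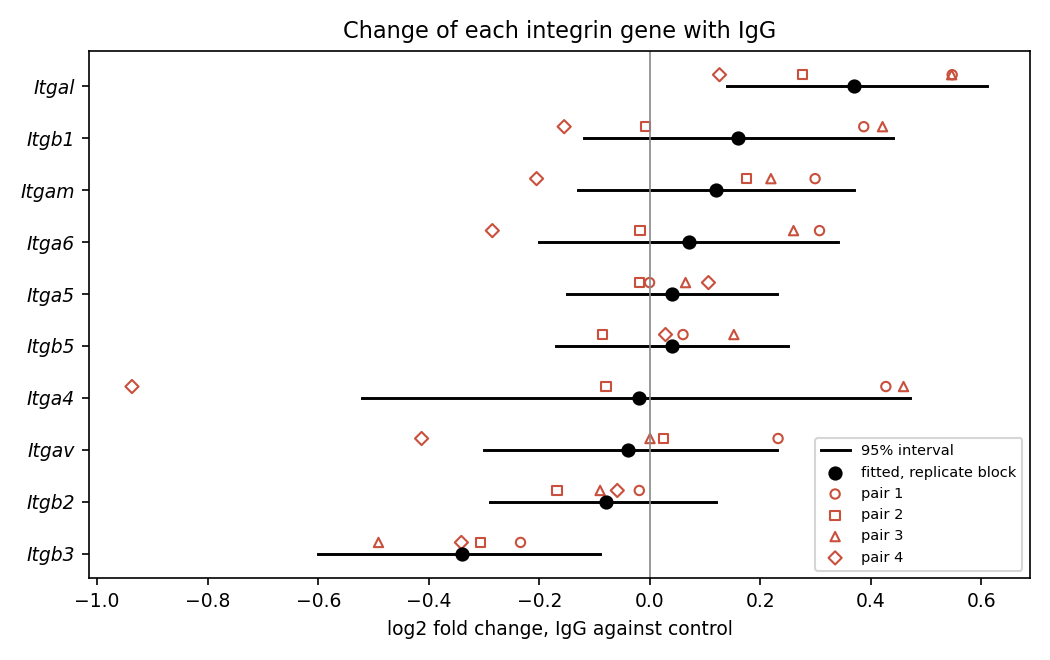
Log2 fold change of IgG against control for each of the 10 genes, with the fitted value and its 95% interval in black and the change within each pair as open symbols. The intervals of Itgal (0.14 to 0.61) and Itgb3 (-0.60 to -0.09) lie on one side of 0, before any adjustment for the number of genes, and pair 4 of Itga4 stands at -0.94.

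The pairs did not move alike. With IgG, 7 of the 10 genes were higher in pair 1 and 8 in pair 3, against 3 in pair 2 and 3 in pair 4. Of the 17537 genes tested, 50.1% to 51.5% were higher in each pair. IgG libraries 1 and 3 were also those with the larger share of mitochondrial counts, 4.85% and 5.59% against 1.97% to 2.41% in the other 6 libraries. Across 13881 genes, the change within a pair was correlated with the GC content of the exons, at a Spearman rho of -0.47 in pair 1, -0.46 in pair 3, -0.041 in pair 2 and 0.37 in pair 4. These are correlations across genes, which are not independent replicates. The exon GC content of Itga4, Itgb1, Itgav and Itga6 was 43.5% to 47.2%, and that of the other 6 genes was 49.9% to 57.0%. When trends on GC content and length were removed, the log2 fold changes of Itga4 and Itgb1 were -0.07 and 0.10, and those of Itgal and Itgb3 were 0.40 and -0.34, with adjusted p-values of 0.114 and 0.205 in edgeR. The part of RNA quality in these values was not tested.

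As a description over the 8 libraries, which share depth and scaling within each, Itga6 and Itgav followed each other most closely among the 10 (Pearson r = 0.95 on log2 CPM), followed by Itga4 and Itgav (0.91). Itgb2 ran opposite to Itga6 (-0.83) and Itgav (-0.74). Among 5685 other genes of at least 5 on the log2 CPM scale, those most like Itgam were its overlapping model Gm49368 (0.993), the helicase gene Dhx36 (0.980) and the diacylglycerol kinase gene Dgkh (0.968). Those most like Itgal were Cnot9 (0.990), a subunit of the CCR4-NOT complex, Selenof (0.950), a selenoprotein of the endoplasmic reticulum, and Slc35a4 (0.949).

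Because an alpha and a beta chain are needed together, ratios of counts per kb were compared within each library, where scaling has no part. The ratio of Itgam to Itgb2 was 0.572, 0.507, 0.525 and 0.459 in control libraries and 0.713, 0.643, 0.651 and 0.414 in IgG libraries. It was higher with IgG in 3 of 4 pairs, by 0.21 ± 0.24 on the log2 scale (SD, n = 4 pairs). A two-sided exact sign-flip permutation test over pairs gave p = 0.25, and 0.125 is the smallest p that 4 pairs can give. Itgal to Itgb2 was 0.115, 0.107, 0.120 and 0.115 in control and 0.171, 0.146, 0.187 and 0.131 in IgG libraries. This ratio was higher in all 4 pairs, without overlap of the groups, by 0.46 ± 0.20 on the log2 scale (exact permutation p = 0.125, 0.40 after Benjamini-Hochberg adjustment over 8 ratios).

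The other 6 ratios were Itga4, Itga5, Itga6 and Itgav to Itgb1, Itgav to Itgb5 and Itgb3 to Itgav. Itga6 to Itgb1 was 0.180, 0.174, 0.216 and 0.145 in control and 0.170, 0.173, 0.193 and 0.133 in IgG libraries, lower in all 4 pairs by a mean log2 difference of -0.10 ± 0.066 (exact permutation p = 0.125, adjusted 0.40). Itgb3 to Itgav was lower in 3 of 4 pairs, with a mean of -0.31 ± 0.26, and so was Itgav to Itgb1, with a mean of -0.20 ± 0.19. The means of the other ratios lay between -0.19 and -0.08. None of the 8 could pass a threshold of 0.05 with 4 pairs.

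**Figure D4:**
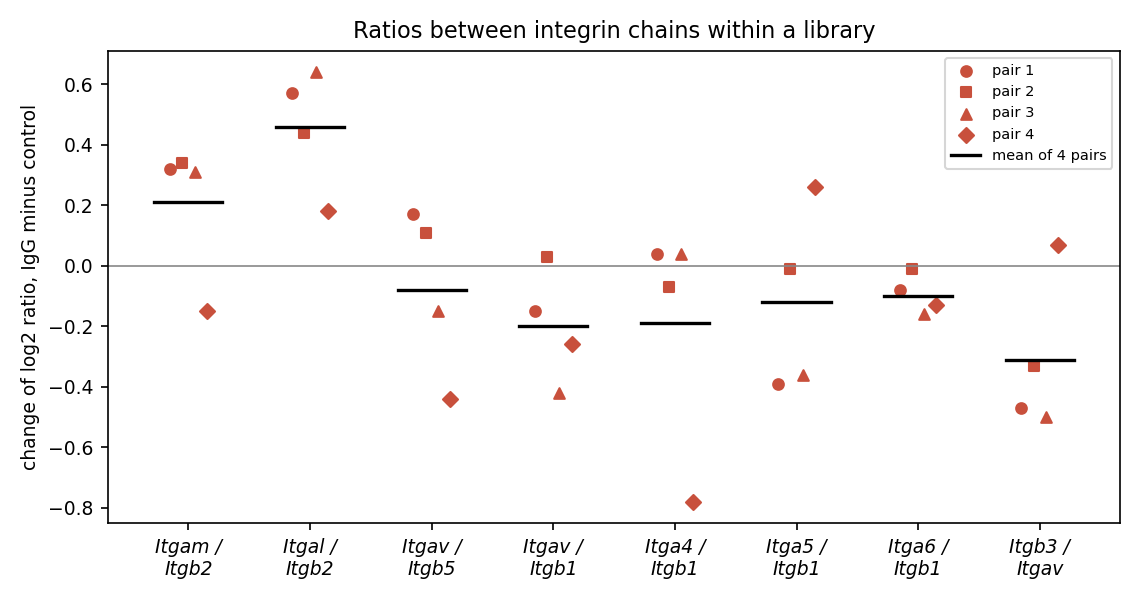
Change of the log2 ratio between integrin chains, IgG minus control, for 8 ratios of counts per kb within a library. Symbols are the 4 pairs and the bar is their mean; Itgal to Itgb2 is above 0 and Itga6 to Itgb1 below 0 in all 4 pairs, and pair 4 of Itga4 to Itgb1 stands at -0.78.

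Of 17 further integrin genes, 12 had enough counts to be tested. At the adjusted threshold 0 were called in edgeR (0.393% of all genes), and 1 had an unadjusted p under 0.05 (10.2% of all genes). Itga9, whose α9 chain binds tenascin and VCAM1, was called by the second criterion, which 1.82% of all genes met. It was at 26.7, 28.6, 27.6 and 29.7 CPM in control and 48.9, 35.9, 51.5 and 31.6 CPM in IgG libraries, and the groups did not overlap. Its log2 fold change was 0.55 (SE 0.15) with an adjusted p of 0.296 in edgeR. It no longer met the second criterion with scaling by total counts alone (0.45), when pair 1, 2 or 3 was left out (0.43 to 0.62, unadjusted p 0.016 to 0.027) or without pairs 1 and 3 (0.21). Without a filter on low counts it passed the adjusted threshold (adjusted p = 0.0218 in edgeR). Itgad, the αD chain, was the most variable, from 4.06 to 45.1 CPM in control and from 3.87 to 44.4 CPM in IgG libraries. Itgb8, the β8 partner of αV, was at 16.4 to 23.2 and 12.5 to 20.5 CPM, and Itgb6 was at 0 in all 8 libraries. The median log2 fold change of the 12 was -0.07.

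Of the proteins that switch integrins on and anchor them to actin, 30 of 31 genes were tested. By either rule 0 were called in the edgeR fit with all 4 pairs (0.393% and 1.82% of all genes). At an unadjusted p under 0.05 there were 3 (10.2% of all genes). Rap1b was called at the adjusted threshold without a filter on low counts, and Rap1b and Tln2 by the second criterion without pair 4. Their median log2 fold change was 0.03. The highest per kb were Rap1b, a small GTPase that recruits talin, at 116 ± 7.68 CPM per kb in control and 164 ± 46.3 in IgG libraries (SD, n = 4), Tln1, which encodes talin, at 105 ± 2.79 and 116 ± 16.9, and Vasp, an actin regulator, at 83.3 ± 5.06 and 83.0 ± 21.4.

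Of 25 kinases and regulators next to integrins, all tested, 1 rose and 0 fell at the adjusted threshold (0.393% of all genes). At an unadjusted p under 0.05 there were 6 higher and 0 lower (10.2% of all genes in either direction), and 10 of 25 were higher in all 4 pairs (10.4% of all genes). The median log2 fold change was 0.10. The gene that rose was Rac2, the small GTPase of blood cells that drives actin assembly. It was at 272, 260, 241 and 230 CPM in control and 455, 352, 414 and 352 CPM in IgG libraries, without overlap. Its log2 fold change of 0.64 (SE 0.095) had an adjusted p of 0.0381 in edgeR, which became 0.20 to 0.239 when pair 1, 2 or 3 was left out, 0.0601 with scaling by total counts alone and 0.373 without the block. With the likelihood ratio test Lyn, a Src family kinase, was also called. Tyrobp, the adaptor DAP12, was the highest of the list at 1509 ± 77.0 CPM per kb in control and 1361 ± 446 in IgG libraries (SD, n = 4), and Vav1, an exchange factor for Rac, was at 63.1 ± 5.95 and 77.7 ± 7.09.

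Of 9 ligands of the β2 integrins, 6 were tested, and 1 rose and 0 fell at the adjusted threshold (0.393% of all genes). The ligand that rose was C3, the complement protein whose fragment iC3b binds αMβ2. It was at 440, 336, 421 and 296 CPM in control and 989, 564, 946 and 470 CPM in IgG libraries, and the groups did not overlap. Its log2 fold change of 0.94 (SE 0.12) had an adjusted p of 0.0239 in edgeR, which became 0.105 to 0.183 when pair 1, 2 or 3 was left out and 0.643 without the block. The levels of the ICAM and JAM ligands were lower. Icam1, a ligand of αL and αM, was at 23.6 ± 0.550 CPM per kb in control and 22.3 ± 2.69 in IgG libraries (SD, n = 4), and F11r, which encodes JAM-A, was at 12.2 ± 0.253 and 12.6 ± 0.468. The median log2 fold change of the 6 ligands was -0.12.

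The ligands of the other integrins included the most abundant gene of the pathway. Of 30 matrix and surface ligands, 27 were tested and 0 were called by either rule in edgeR (0.393% and 1.82% of all genes). At an unadjusted p under 0.05 there were 1 higher and 1 lower (10.2% of all genes in either direction). The median log2 fold change was -0.01. Spp1, the secreted protein osteopontin, which binds αV and α4 integrins, stood at 6342 ± 1054 CPM per kb in control and 6281 ± 795 in IgG libraries (SD, n = 4). Adam8, a membrane protease, was at 221 ± 17.5 and 221 ± 15.04. Fn1, fibronectin, was at 85.0 ± 21.9 and 63.6 ± 9.98, with each IgG library below its own control. Fn1 was not called with all pairs (log2 fold change -0.39, adjusted p = 0.367 in edgeR) but was called by both rules without pairs 1 and 3.

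Of 14 surface proteins that associate with integrins, all tested, 0 were called by either rule in the edgeR fit with all 4 pairs. Over all genes the shares were 0.393% and 1.82%. At an unadjusted p under 0.05 there were 2 higher and 3 lower (10.2% of all genes in either direction). The median log2 fold change was 0.01. Plaur, the urokinase receptor, and Lrrc32, which anchors latent TGF-β, had log2 fold changes of -0.50 and -0.59 with adjusted p-values of 0.365 and 0.363 in edgeR. By the second criterion Plaur was called with DESeq2, and both were called with the likelihood ratio test, with scaling by total counts alone and without a filter. Lrrc32 was called by it without the block, with at least 10 counts in every library and without pair 3, and Plaur without pair 4. Plaur was also called at the adjusted threshold without a filter. The highest were the tetraspanin genes Cd9 at 265 ± 34.7 CPM per kb in control and 212 ± 58.1 in IgG libraries, Cd63 at 247 ± 5.17 and 244 ± 32.0, and Cd53 at 189 ± 0.699 and 241 ± 43.5 (SD, n = 4). Of 16 genes of integrin trafficking, all tested, 0 were called by either rule in edgeR or any alternative. In the edgeR fit with all 4 pairs, 0.393% and 1.82% of all genes were called by these rules. Of the 16, 1 had an unadjusted p under 0.05 (10.2% of all genes), and the median was 0.11. The highest were the clathrin genes Clta at 179 ± 9.67 and 191 ± 13.9 and Cltc at 82.6 ± 3.33 and 105 ± 34.03, and Arf6, a GTPase of endosome recycling, at 93.5 ± 5.82 and 80.5 ± 8.45.

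**Figure D5:**
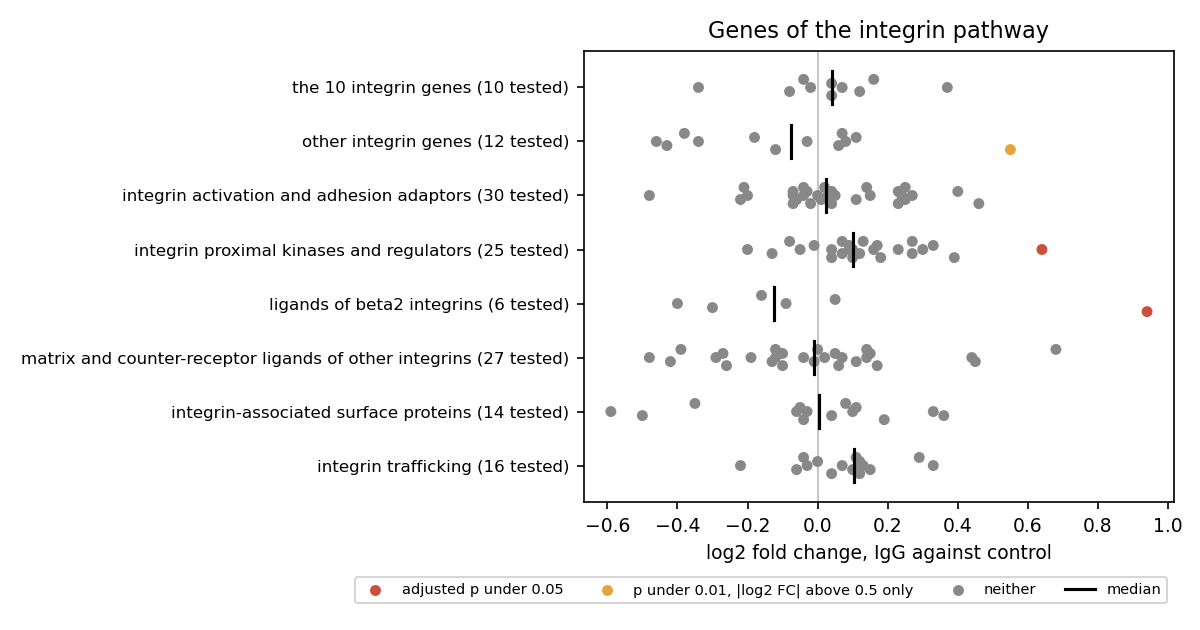
Log2 fold change of IgG against control for each tested gene of the integrin pathway, in 8 lists with the number tested, with the list's median as a black bar. Rac2 among the kinases and regulators and C3 among the β2 ligands are the points past the adjusted threshold, and Itga9 passes only the second criterion.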

How the data were processed

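Gene counts were analysed from 4 control and 4 IgG-treated libraries of cultured mouse microglia. The table the authors deposited holds counts of reads per Ensembl gene in whole numbers, without normalization. The authors enriched polyA RNA, aligned reads to mm10 (GRCm38), and their submitters' processing notes list HISAT2 2.2.1, SAMtools 1.12, Picard 2.26.3, featureCounts, R 4.1.2 and edgeR 3.36.0. Strand use and the treatment of overlapping genes are not given in the sources used here, so Itgam, Itga4 and Itgav, whose exons overlap other gene models, are uncertain as single genes. Symbols and exon lengths came from GENCODE M21, which held 55144 of the 55385 identifiers.

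Counts were scaled with TMM, filtered with filterByExpr and fitted in edgeR 4.0.16 (R 4.3.3) by quasi-likelihood, with group and replicate block as terms, and p-values were adjusted by Benjamini-Hochberg over all genes tested. Log2 CPM used a prior count of 2. The numbers pair the libraries because the labels give both members of a pair 1 date, without saying of which step. As a check, the deviation of a library from its group mean correlated with that of its partner at 0.452, 0.391, 0.284 and 0.325 across 13901 genes. With those of other libraries of the other group it correlated at -0.372 to 0.246. The positive values among these were between numbers 1 and 3 (0.18 and 0.246) and between 2 and 4 (0.189 and 0.194). IgG library 3 had 0.246 with control library 1, against 0.284 with its partner. No libraries of a group agreed within sampling noise (chi-square per degree of freedom of at least 5). DESeq2 1.42.0, limma-voom of limma 3.58.1, other scalings and filters, trends on GC content and length, and omission of pairs were alternatives. Totals of 21287816 to 23703216 counts put 3 counts at 0.127 to 0.141 CPM.

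The members and gene lists were chosen with earlier results of these data known. By rule, all 10 members were named, with the called genes and the 3 highest per kb of each pathway list, the microglia markers (1 of which is not reported here), and the 3 genes most like Itgam and the member of smallest p.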

Additional observations from a re-analysis of the deposited data

Results flagged for a closer look

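Among 36 groups of 4 values (10 genes and 8 ratios, in control and in IgG libraries), 1 held a library that stood apart from the rest by Dixon's test. Chance gives such a result in about 5% of groups. The IgG library of pair 2 had 173 CPM of Itga5, and the gap to the nearest of the other IgG libraries, at 186 to 188 CPM, was 0.910 of the whole range.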

How the results depend on the processing

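With all 4 pairs, or 3, none of the 10 integrin genes was called by either rule in 13 alternative fits. Without pairs 1 and 3, added once the data had been seen, Itga4 was called by both rules (1 of 10; log2 fold change -0.51, adjusted p = 0.0421 in edgeR). Itgal, Itgb2 and Itgb3 kept their direction in all 14. In that same fit on 2 pairs the changes of Itgam (-0.01), Itga6 (-0.15), Itgb1 (-0.08) and Itgb5 (-0.03) reversed. Scaling by total counts alone, which moved the median of all genes from -0.01 to -0.11, reversed Itga5 (-0.06), Itga6 (-0.03) and Itgb5 (-0.06). Without the replicate block Itga4 reversed (0.06). Leaving out 1 pair gave 0.06 to 0.21 for Itgam (unadjusted p = 0.046 without pair 4 in edgeR), 0.08 to 0.25 for Itgb1, 0.002 to 0.08 for Itgb5, -0.25 to -0.04 for Itga5 to Itgb1, -0.19 to 0.25 for Itga4, -0.0013 to 0.06 for Itga5, -0.01 to 0.17 for Itga6, -0.13 to 0.07 for Itgav, -0.16 to 0.04 for Itgav to Itgb5 and -0.27 to 0.0025 for Itga4 to Itgb1, with the reversal without replicate 1 for Itga6 and without replicate 4 for Itga4, Itga5, Itgav and the last 2 ratios. Itgam to Itgb2 stayed at 0.16 to 0.32 without 1 pair, and Itgav to Itgb1 at -0.28 (without pair 2) to -0.13 (without pair 3).

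Of all genes, 69 were called at the adjusted threshold, but 0 without the replicate block, 37 by total counts, 376 without a filter, 233 with DESeq2, 327 with the likelihood ratio test, 208 with GC content and length trends removed, 190 without pairs 1 and 3, and 0 to 182 without 1 pair (0 without pair 2). By the second criterion 320 were called, but 148 without the replicate block, 648 without a filter, 528 with the likelihood ratio test, and 215 to 762 without 1 pair. Of the 130 genes of the other integrin lists, 2 were called (Rac2 and C3), but 0 without the replicate block, 1 by total counts, 5 without a filter and 0 to 2 without 1 pair (0 without pair 1, 2 or 3). By the second criterion 3 were called, but 5 without a filter or with the likelihood ratio test, and 2 to 6 without 1 pair. The block changed no call among the 10. The causes were not tested. Itgb3 rested on the fewest counts of the 10, 187 to 366 per library.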
